A study of Mus musculus with 12 samples.

Results

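The comparison set LY6D- SCA1high cells of the mouse prostate against LY6D- SCA1low cells. It held 4 of the 12 RNA libraries of the series, chosen by the cell population label, with 2 libraries for SCA1high and 2 for SCA1low. All animals were wild-type C57BL/6 mice aged 6 to 8 weeks, and no agent or transgene is named for either group. Cells with CD31, an endothelial protein, CD45, a leukocyte protein, or Ter119, a red cell protein, were removed from the prostate cells, and luminal cells without surface LY6D were then sorted by their level of SCA1. The other 8 libraries, LY6D- SCA1int and LY6D+ cells at each SCA1 level, entered the fit to estimate the spread between libraries. They were also used to place the differences along the SCA1 levels and beside LY6D+ cells.

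SCA1 is the product of Ly6a, a small glycolipid-anchored surface protein used to enrich stem and progenitor cells in several mouse tissues. In the mouse prostate it is strongest on cells of the proximal ducts, near the urethra, and weak on the distal secretory cells. Distal luminal cells make the proteins of prostatic fluid, which pass through the endoplasmic reticulum (ER) with the help of chaperones. SCA1 also stands on endothelial and stromal cells, so markers of those cells are given beside the results.

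Totals of the 4 libraries were 9950859 and 20022077 counts in SCA1high and 12432403 and 11954423 in SCA1low. Features over the ribosomal RNA repeat held 9.51% and 12.5% of the counts in SCA1high, against 22% and 20.0% in SCA1low. Some libraries shared counts. A gene was taken as specific to a library where it stood at 30 CPM or more there (CPM, the count scaled to the depth of the library), below 50% of that level in the highest other library and below 3% in all remaining ones. The 20 genes specific to SCA1high library 1 stood in SCA1low library 2 at a median of 10.7% of their own level, and in SCA1low library 1 at 1.57%. The 39 genes specific to SCA1low library 1 stood in SCA1high library 2 at a median of 5.06%, and in SCA1high library 1 at 0. In log2 CPM across tested genes, SCA1high library 1 correlated at 0.729 with SCA1low library 2, above its 0.707 with SCA1high library 2. The 2 SCA1low libraries correlated at 0.676, and the remaining SCA1high to SCA1low pairs at 0.604 to 0.655. SCA1high library 1 and SCA1low library 2 were thus closer to each other than to their replicates. How these counts came to be shared was not tested. Main counts of genes are therefore given also without SCA1low library 2, and after subtracting the shared part. That part was set for each pair of libraries as the median share of counts over the genes specific to 1 of them. The same share of every gene's counts in that library was taken off the other, with 0 as the floor. Where a gene is far higher in 1 population, this step by itself widens its fold change. A larger fold change after subtraction is therefore no added support.

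**Figure D1:**
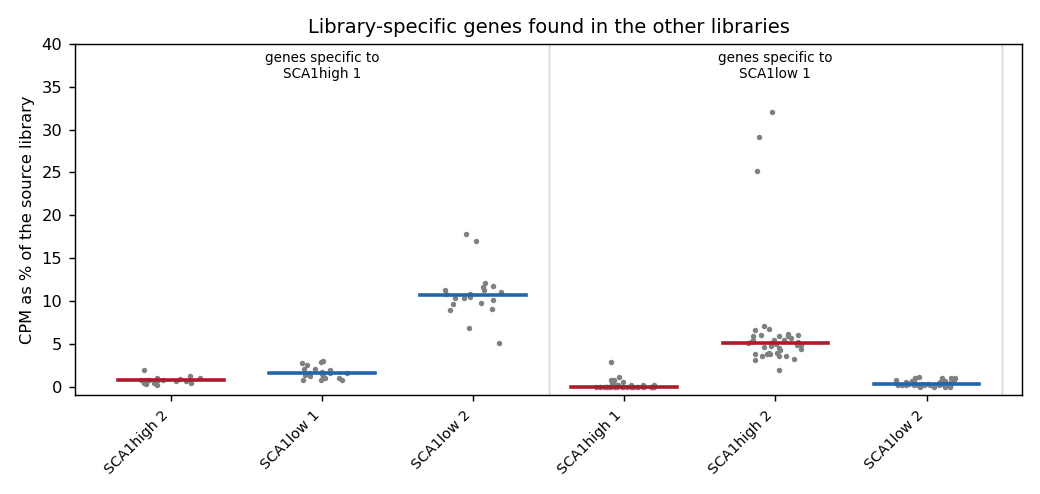
Level of library-specific genes in the other LY6D- SCA1high and SCA1low libraries. The y axis is the CPM as a percentage of the level in the library they are specific to, each point is a gene and each bar a median. Genes of SCA1high library 1 lie at a median of 10.7% in SCA1low library 2 and those of SCA1low library 1 at a median of 5.06% in SCA1high library 2.

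Ly6a followed the gate. It stood at 593 and 477 CPM in the SCA1high libraries, against 24.8 and 68.8 CPM in the SCA1low libraries, and at 102 and 148 CPM in SCA1int. Both SCA1high libraries lay above both SCA1low libraries, and the higher SCA1low value was that of library 2. The log2 fold change was 3.51 ± 0.77 (SE, adjusted p = 0.0209, edgeR's quasi-likelihood test). CPM in the text is scaled by edgeR's TMM factors, and a gene is called where its p, adjusted over all tested genes, is below 0.05. Without SCA1low library 2 it was 4.40, and subtraction left Ly6a at 1.34 and 0 CPM in SCA1low. The Ly6a call was lost without SCA1high library 1 (3.27), without SCA1high library 2 (3.62), without SCA1low library 1 (2.79) and with RLE scaling. Ly6d, which encodes the surface protein absent by the gate, stood at 0.938 and 3.85 CPM in SCA1high and at 0.968 and 0.433 CPM in SCA1low, and its log2 fold change of 1.78 ± 1.05 was not called.

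Markers of epithelium were present in both populations. Cdh1, which encodes E-cadherin, stood at 391 and 288 CPM in SCA1high and at 533 and 540 CPM in SCA1low. Epcam stood at 80.4 and 60.8 CPM in SCA1high and at 150 and 38.6 CPM in SCA1low. The luminal keratin genes Krt8 and Krt18 stood at 72.9 to 108 CPM in SCA1high and at 148 to 295 CPM in SCA1low. None of these 4 genes was called. Of 15 tested genes of luminal keratins and epithelial junctions 0 were called by edgeR and 2 lower by DESeq2, with 2 at an unadjusted p below 0.05 and a median log2 fold change of -0.90. Of the lineage genes removed in the sort, Ptprc, which encodes CD45, was at 0.108 CPM or less in all 4 libraries. Pecam1, which encodes CD31, was not near 0: it stood at 573 and 401 CPM in SCA1high and at 28.6 and 69.3 CPM in SCA1low.

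In all, 97 of 15270 tested genes were called (0.635%), 37 higher in SCA1high (0.242%) and 60 lower (0.393%). Of the 60 lower, 27 are mitochondrially encoded, ribosomal repeat or other small RNA features, RIKEN clones or predicted genes without a plain symbol. The absolute log2 fold change ran from 1.97 to 3.79 among the higher genes and from 1.04 to 5.11 among the lower genes. For each of the 97 the SCA1high libraries did not overlap the SCA1low libraries, as held for 22.7% of all tested genes upward and 13.4% downward. The calls in the gene lists below stand beside these shares over all tested genes. An unadjusted p below 0.05 was found for 1015 genes. The balance of the calls depended on the scaling, since the median log2 fold change of all tested genes was 0.53 with TMM, 0.09 with RLE factors and 1.04 with library size alone. RLE gave 20 higher and 117 lower, and library size alone gave 96 higher and 40 lower. Subtraction of shared counts gave 63 higher and 68 lower, with 88 of the 97 among them and a median over all tested genes of 0.17. Without SCA1low library 2 there were 75 higher and 108 lower, with 93 of the 97 among them and a median over all tested genes of 1.5. Without SCA1low library 1 there were 16 higher and 71 lower, with 69 of the 97, and without SCA1high library 2 there were 22 higher and 76 lower, with 70 of the 97. Leaving out any 1 library, LY6D+ ones included, raised the number of tested genes to between 17354 and 17770. Numbers of calls from such fits therefore cannot be set against the 97 to judge the shared counts. In such bulk libraries, fewer cells of a type and less RNA per cell cannot be told apart.

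**Figure D2:**
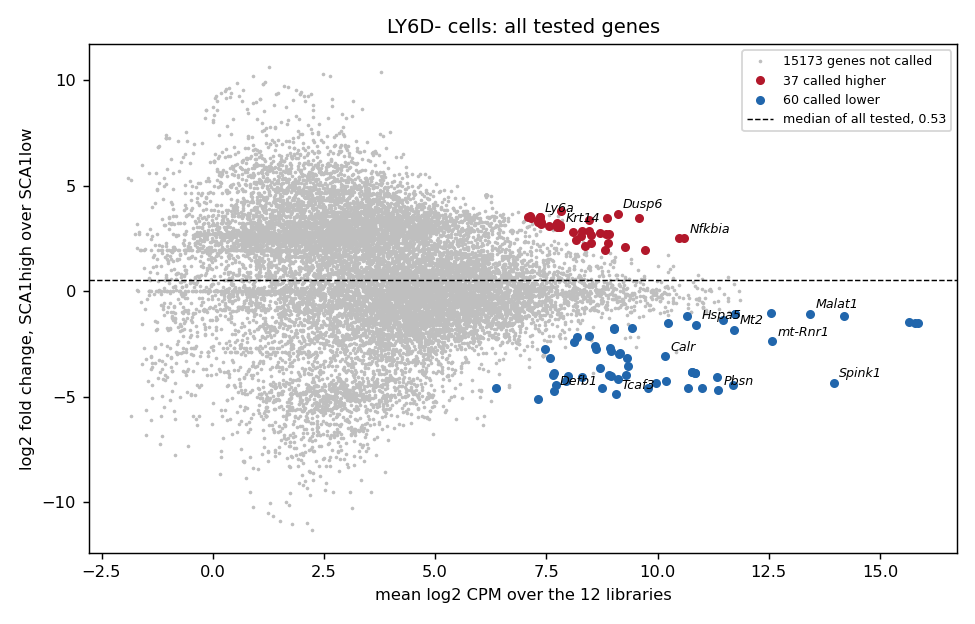
Log2 fold change of SCA1high over SCA1low in LY6D- cells (y axis) against the mean log2 CPM over the 12 libraries (x axis), 1 point per tested gene. Red points are the 37 genes called higher and blue points the 60 called lower, and the dashed line is the median of all tested genes at 0.53.

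Genes of secreted prostate proteins fell. Of 15 listed genes 12 were tested, 7 fell and 0 rose, with a median log2 fold change of -4.45 against 0.53 over all tested genes. Pbsn, which encodes the androgen-dependent lipocalin probasin, stood at 276 and 421 CPM in SCA1high, against 10655 and 7158 CPM in SCA1low. Its log2 fold change was -4.68 ± 0.32 (SE, adjusted p = 6.54e-11). Spink1, a secreted trypsin inhibitor, stood at 1792 and 3504 CPM in SCA1high, against 71398 and 34790 CPM in SCA1low (-4.33 ± 0.35, adjusted p = 2.61e-09). Msmb, which encodes beta-microseminoprotein, stood at 28.2 and 56.2 CPM in SCA1high, against 1178 and 851 CPM in SCA1low (-4.59 ± 0.58). The groups were far apart for each of these genes, and the SCA1int libraries lay between them. Sbp, which encodes spermine-binding protein, had 247 and 375 CPM in SCA1high, against 7106 and 7705 CPM in SCA1low, but shares near-identical sequence with Sbpl, which was called too. Tgm4, the prostate transglutaminase that forms the copulatory plug in rodents, had 217 and 220 CPM in SCA1high, against 4710 and 3572 CPM in SCA1low (-4.24 ± 0.68). Zdhhc3, a palmitoyltransferase gene called at -4.36 ± 0.51, overlaps Tgm4 on the opposite strand, and without the strand setting of the counting their reads cannot be told apart. After subtraction of shared counts the median of the list was -5.63, and Pbsn stood at 275 and 40.5 CPM in SCA1high, against 10971 and 9025 CPM in SCA1low (-6.18). Subtraction gave -5.53 for Spink1, -6.01 for Msmb, -5.74 for Sbp, -5.28 for Tgm4 and -5.45 for Zdhhc3. Without SCA1high library 2, Spink1 was at -4.96 and Msmb at -5.23. The summed level of the list was 3219 and 5190 CPM in SCA1high, against 106369 and 62312 CPM in SCA1low.

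Of 7 tested genes of beta-defensins and mucosal antimicrobials 2 fell and 0 rose. Defb50, a beta-defensin gene expressed in the prostate, stood at 333 and 361 CPM in SCA1high, against 7320 and 4436 CPM in SCA1low (-4.08 ± 0.27, adjusted p = 6.54e-11). Defb1, another beta-defensin gene, stood at 1.88 and 32.9 CPM in SCA1high, against 508 and 409 CPM in SCA1low (-4.72 ± 0.88, adjusted p = 0.00341). The higher SCA1high value of Defb1 was that of library 2, the library that held genes of SCA1low library 1. Without that library the log2 fold change of Defb1 was -7.99, without SCA1high library 1 it was -3.86, and after subtraction -6.41. Subtraction gave -5.14 for Defb50. Tcaf3, of the TRP channel-associated factor family, stood at 43.5 and 98.3 CPM in SCA1high, against 2418 and 1774 CPM in SCA1low (-4.88 ± 0.66, adjusted p = 3.41e-05). It was at -5.65 without SCA1high library 2 and at -6.60 after subtraction. Its neighbour in the family Tcaf2 stood at 52.1 and 42.5 CPM in SCA1high, against 275 and 231 CPM in SCA1low, and was not called (-2.42 ± 0.92). Fcgbp, which encodes a mucus-associated protein that binds IgG Fc, had 36.8 and 56.8 CPM in SCA1high and 868 and 915 CPM in SCA1low. Mmp7, which encodes the epithelial metalloproteinase matrilysin, had 43.7 and 46.8 CPM in SCA1high and 611 and 799 CPM in SCA1low. Both were called lower, with log2 fold changes of -4.25 and -3.96, and were named after their values were seen, as were Malat1 and Rn7sk below. The complement protease genes C1ra and C1rb, near-identical copies, were called lower too.

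Of 23 tested genes of the androgen receptor and its response 2 fell and 0 rose, where 0.393% of all tested genes were called lower. Their median log2 fold change was -0.11, against 0.53 over all tested genes. Hoxb13, a homeobox gene of the prostate epithelium, stood at 37.8 and 49.2 CPM in SCA1high, against 484 and 295 CPM in SCA1low (-3.16 ± 0.74, adjusted p = 0.0378). The call of Hoxb13 was lost without SCA1high library 1 (-3.04), SCA1high library 2 (-3.43) or SCA1low library 1 (-2.91), and after subtraction. Acsl3, which activates long-chain fatty acids, stood at 2.97 and 6.86 CPM in SCA1high, against 101 and 139 CPM in SCA1low (-4.60 ± 1.12, adjusted p = 0.0487). Its call was lost without either SCA1high library (-4.19 without library 1 and -5.39 without library 2) and without either SCA1int library (-4.58 and -4.57).

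**Figure D3:**
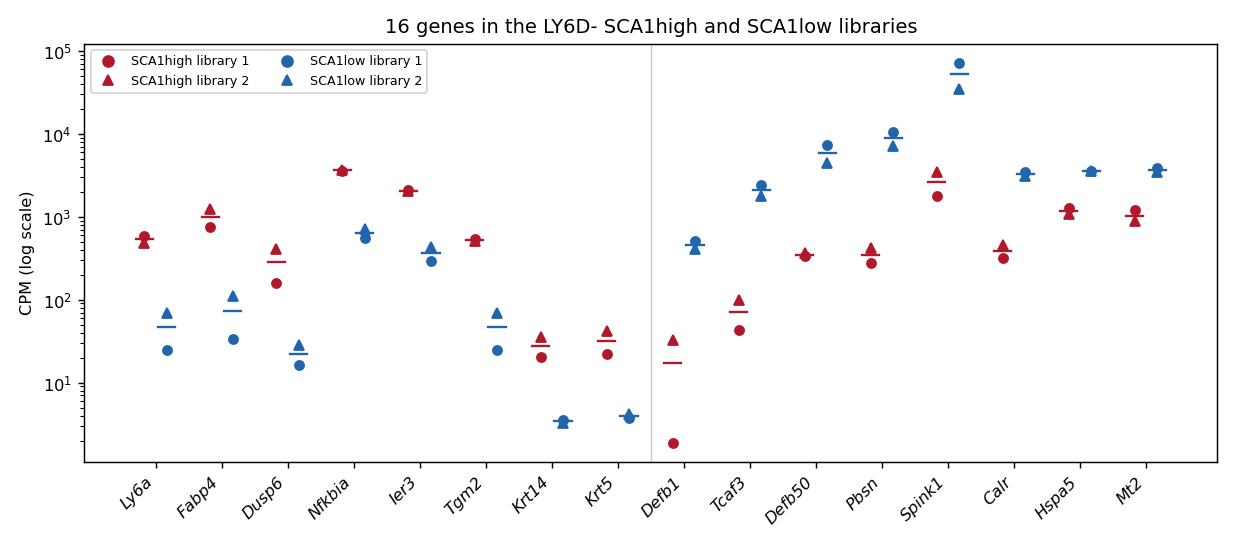
CPM on a log scale of 16 genes in each of the 4 libraries, with SCA1high in red left of SCA1low in blue, circles for library 1, triangles for library 2 and bars for the mean of each group. The 8 genes on the left lie higher in both SCA1high libraries and the 8 on the right lie lower in both.

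Chaperone genes of the ER fell in SCA1high cells. Of 48 tested genes of ER chaperones, translocation and the unfolded protein response 6 fell and 0 rose, with a median log2 fold change of -1.61. Of the 48, 30 had both SCA1high libraries below both SCA1low libraries and 1 had both above. Over all tested genes these shares were 13.4% and 22.7%, and 0.393% were called lower. Calr, which encodes the calcium-binding chaperone calreticulin, stood at 319 and 459 CPM in SCA1high, against 3502 and 3124 CPM in SCA1low (-3.09 ± 0.34, adjusted p = 2.43e-06). Hsp90b1, which encodes GRP94, the HSP90 of the ER, stood at 153 and 272 CPM in SCA1high, against 2043 and 1195 CPM in SCA1low (-2.93 ± 0.45). Hspa5, which encodes BiP, the HSP70 of the ER and the sensor partner of the unfolded protein response, stood at 1269 and 1093 CPM in SCA1high, against 3523 and 3528 CPM in SCA1low (-1.58 ± 0.25, adjusted p = 0.000592). The groups did not overlap for these 3 chaperone genes. The disulfide isomerase gene Pdia6 stood at 155 and 183 CPM in SCA1high, against 1302 and 751 CPM in SCA1low (-2.60 ± 0.53). Pdia3 (-2.13 ± 0.49) and the translocon subunit gene Sec61g (-1.75 ± 0.40) fell too. Their calls were less firm. That of Pdia3 was lost without SCA1high library 1 (-1.84), SCA1high library 2 (-2.65) or SCA1low library 1 (-2.03), and that of Sec61g without SCA1high library 1 (-1.96), SCA1high library 2 (-1.66) or SCA1low library 2 (-1.68). Dnajc10, which encodes the ER reductase ERdj5 and was not in the list, fell to 71.3 and 125 CPM in SCA1high, against 1277 and 1189 CPM in SCA1low (-3.65 ± 0.49). RLE factors called 13 of the 48 genes lower, and library size alone called 4.

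Mammalian ER chaperone promoters are known for the ER stress element, read by ATF6 with NF-Y, and the promoters of the fallen chaperone genes are shown because they carry it. The motif searched was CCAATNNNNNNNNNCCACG on both strands, in RefSeq windows of GRCm38.p6 from 250 bases before to 50 bases after each gene start. It was found in 0.119% of all 32851 windows and in 18 of the 9718 tested genes that have a window. Among called genes with a window, it was found in 4 of 28 that fell and in 0 of 26 that rose. Those with a match were Calr, Hsp90b1, Hspa5 and Pdia6. In the listed ER genes it was found in 8 of 39 tested genes with a window. The other 4 of these were not called. A match is a description of the letters, not a measured binding site. The windows follow 5′ to 3′ on the strand of the gene, with matches on either strand in capitals.
Hspa5, chr2:34771840-34772139, plus strand: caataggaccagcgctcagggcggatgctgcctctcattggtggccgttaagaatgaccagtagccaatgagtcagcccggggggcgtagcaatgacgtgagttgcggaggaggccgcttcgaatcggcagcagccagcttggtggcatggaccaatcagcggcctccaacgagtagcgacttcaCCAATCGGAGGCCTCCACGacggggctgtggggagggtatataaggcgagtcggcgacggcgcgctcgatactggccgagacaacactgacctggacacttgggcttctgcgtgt
Hsp90b1, chr10:86705395-86705694, minus strand: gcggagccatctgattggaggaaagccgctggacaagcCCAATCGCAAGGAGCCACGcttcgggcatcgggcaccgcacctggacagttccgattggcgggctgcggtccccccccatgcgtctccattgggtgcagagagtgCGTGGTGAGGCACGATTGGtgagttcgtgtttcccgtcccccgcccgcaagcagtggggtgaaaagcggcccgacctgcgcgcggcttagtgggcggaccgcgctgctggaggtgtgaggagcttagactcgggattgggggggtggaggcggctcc
Calr, chr8:84846882-84847181, minus strand: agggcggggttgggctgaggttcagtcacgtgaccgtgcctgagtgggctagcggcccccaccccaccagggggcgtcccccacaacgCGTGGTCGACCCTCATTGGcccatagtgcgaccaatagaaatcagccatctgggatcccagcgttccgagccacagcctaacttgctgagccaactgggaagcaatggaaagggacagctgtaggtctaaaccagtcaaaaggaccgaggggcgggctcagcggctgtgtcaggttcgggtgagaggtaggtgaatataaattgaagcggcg
Pdia6, chr12:17266339-17266638, plus strand: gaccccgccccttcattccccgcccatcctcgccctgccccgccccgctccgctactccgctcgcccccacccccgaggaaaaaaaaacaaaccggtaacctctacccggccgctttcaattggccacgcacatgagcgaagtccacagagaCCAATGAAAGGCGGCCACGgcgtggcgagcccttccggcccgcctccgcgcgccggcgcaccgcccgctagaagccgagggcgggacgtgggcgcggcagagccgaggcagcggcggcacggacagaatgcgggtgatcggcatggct
Hsp90b1 held 2 matches, 1 on each strand, and the other 3 genes held 1 each.

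Mitochondrially encoded transcripts were lower too. Of 15 tested 8 fell and 0 rose, with a median log2 fold change of -1.18, and 14 of 15 had both SCA1high libraries below both SCA1low libraries. Over all tested genes 0.393% were called lower and 13.4% had both SCA1high libraries below both SCA1low libraries. mt-Rnr1, the small ribosomal RNA of the mitochondrion, stood at 1808 and 3554 CPM in SCA1high, against 12777 and 14806 CPM in SCA1low (-2.36 ± 0.27, adjusted p = 4.05e-06). mt-Nd5, a subunit gene of respiratory complex I, stood at 139 and 262 CPM in SCA1high, against 1817 and 1328 CPM in SCA1low (-2.97 ± 0.45). mt-Co1, of complex IV, stood at 1950 and 2099 CPM in SCA1high, against 5218 and 5248 CPM in SCA1low (-1.37 ± 0.24), a call that was lost with library size as the only scaling. RLE factors called 13 of the 15 lower, and library size alone called 2. Without SCA1high library 2, mt-Rnr1 was at -2.99 and mt-Nd5 at -3.57. The mitochondrial share of all counts was 2.97% and 4.61% in SCA1high, against 5.93% and 7.30% in SCA1low. The nuclear RNAs Malat1 (-1.06 ± 0.17) and Rn7sk (-3.86 ± 0.48) and the ribosomal repeat features fell as well, and whether RNA quality or library makeup had a part in these falls was not tested.

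Metallothionein genes, whose products bind zinc and other metals, and an antioxidant gene fell in SCA1high cells. Mt2 stood at 1190 and 878 CPM in SCA1high, against 3865 and 3458 CPM in SCA1low (-1.82 ± 0.24, adjusted p = 3.41e-05). Mt1 stood at 156 and 151 CPM in SCA1high, against 1002 and 977 CPM in SCA1low (-2.69 ± 0.47, adjusted p = 0.00155). SCA1int cells held Mt2 at 4772 and 3692 CPM, not below SCA1low, while they held Mt1 at 479 and 332 CPM, between both groups. Mt2 overlaps Gm45774 on the opposite strand, which was called too. Prdx6, which encodes a peroxiredoxin, stood at 165 and 175 CPM in SCA1high, against 2234 and 1770 CPM in SCA1low (-3.56 ± 0.44).

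Nfkbia had the smallest p among the genes that rose in SCA1high cells. Nfkbia, which encodes IκBα, the inhibitor that holds NF-κB in the cytoplasm and is itself an NF-κB target, stood at 3572 and 3679 CPM in SCA1high, against 549 and 715 CPM in SCA1low. Its log2 fold change was 2.52 ± 0.29 (SE, adjusted p = 4.05e-06), and 3.36 after subtraction. SCA1int libraries lay between the groups, at 1328 and 1559 CPM. Of 18 tested NF-κB feedback and target genes Nfkbia was the 1 called, 0 fell and the median log2 fold change was 3.08. In 14 both SCA1high libraries lay above both SCA1low libraries, as they did for 22.7% of all tested genes. Over all tested genes the median was 0.53 and 0.242% were called higher. Among those not called were the chemokine gene Cxcl1 (277 and 205 CPM in SCA1high, 10.9 and 37.9 CPM in SCA1low) and the adhesion gene Vcam1 (219 and 548 CPM in SCA1high, 18.3 and 38.0 CPM in SCA1low). The Nfkbia promoter is shown for its κB site. The motif searched, GGG with any 2 bases and then TTTCC, on both strands, was found in 1.63% of all windows, in 3 of 26 genes that rose (Nfkbia, Krt14 and Mcl1) and in 0 of 28 that fell. The match is in capitals.
Nfkbia, chr12:55492598-55492897, minus strand: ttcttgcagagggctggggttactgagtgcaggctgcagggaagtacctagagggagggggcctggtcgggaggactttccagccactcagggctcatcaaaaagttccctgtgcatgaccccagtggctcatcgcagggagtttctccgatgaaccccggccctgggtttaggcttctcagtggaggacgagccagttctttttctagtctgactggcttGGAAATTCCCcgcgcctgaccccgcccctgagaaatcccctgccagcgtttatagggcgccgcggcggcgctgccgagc

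Of the ERK feedback list 1 gene was called, and of the immediate early and heat shock list 3, all higher. Over all tested genes 0.242% were called higher, and the median log2 fold change was 0.53. Dusp6, the phosphatase that switches off ERK and is induced by it, stood at 158 and 413 CPM in SCA1high, against 16.5 and 28.4 CPM in SCA1low (3.67 ± 0.52, adjusted p = 9.68e-05). It was at 2.76 without SCA1high library 2 and at 6.16 after subtraction. SCA1int held 379 and 301 CPM, so Dusp6 was no lower there than in SCA1high. Of 15 tested ERK feedback genes 1 rose, Dusp6, and 0 fell, with a median of 2.52. Spry2, another ERK feedback inhibitor, had 9.61 and 67.0 CPM in SCA1high and 3.01 and 1.9 CPM in SCA1low, and Ccnd1, which encodes cyclin D1, had 363 and 539 CPM in SCA1high and 165 and 80.8 CPM in SCA1low. Neither was called. Hbegf, an EGF receptor ligand, stood at 510 and 498 CPM in SCA1high, against 142 and 91.7 CPM in SCA1low (2.11 ± 0.39). With SCA1high library 2 and SCA1low library 2 both left out, the Hbegf call was lost (1.85). The related cyclin gene Ccnd2 was called higher. Of 35 tested immediate early and heat shock genes 3 rose and 0 fell, with a median of 0.93. Ier3 stood at 2106 and 2018 CPM in SCA1high, against 294 and 430 CPM in SCA1low (2.51 ± 0.31). Fosl2, an AP-1 subunit, stood at 662 and 669 CPM in SCA1high, against 64.2 and 123 CPM in SCA1low (2.83 ± 0.51). Ier5 stood at 401 and 374 CPM in SCA1high, against 23.1 and 64.7 CPM in SCA1low (3.14 ± 0.63). The calls of Fosl2 (2.28) and Ier5 (2.42) were lost without SCA1low library 1. Ier5 was at 4.04 without SCA1low library 2, and subtraction gave 3.38 for Ier3, 4.12 for Fosl2 and 5.56 for Ier5. Pim3, a kinase gene, stood at 1847 and 1986 CPM in SCA1high, against 455 and 526 CPM in SCA1low (1.97 ± 0.37), and was not called with RLE factors. Mcl1, which encodes an inhibitor of apoptosis, was called higher too.

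The other genes with the smallest p among those that rose were Tgm2, Adamts1, Cavin1, S100a6 and Emp1, which belong to no list tested. Tgm2, which encodes the widely expressed tissue transglutaminase, stood at 536 and 504 CPM in SCA1high, against 24.4 and 70.0 CPM in SCA1low (3.46 ± 0.50, adjusted p = 0.000107). Its direction was opposite to that of Tgm4. Adamts1, a secreted metalloproteinase gene, stood at 826 and 1181 CPM in SCA1high, against 44.7 and 146 CPM in SCA1low (3.39 ± 0.56). Cavin1, needed for caveolae, stood at 790 and 1061 CPM in SCA1high, against 95.2 and 161 CPM in SCA1low (2.85 ± 0.50). S100a6, which encodes a calcium-binding protein, stood at 689 and 465 CPM in SCA1high, against 69.3 and 105 CPM in SCA1low (2.72 ± 0.49). Emp1, which encodes an epithelial membrane protein, stood at 1542 and 1856 CPM in SCA1high, against 159 and 356 CPM in SCA1low (2.72 ± 0.53), and was not called after subtraction of shared counts. In these 5 genes SCA1low library 2 lay above SCA1low library 1, and both lay below the SCA1high libraries. Without SCA1low library 2 the log2 fold change was 4.39 for Tgm2, 4.48 for Adamts1 and 3.41 for Emp1, and without SCA1low library 1 it was 2.73, 2.64 and 2.11 for these 3 genes. Subtraction left Tgm2 at 0 CPM in both SCA1low libraries, so no fold is given for it there. It gave 5.59 for Adamts1, 3.88 for Cavin1 and 4.41 for S100a6. S100a10, Ano1 (a calcium-activated chloride channel gene), Clic4, Nfib and Apoe were also called higher.

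Basal keratin genes rose as well, from low levels. Krt14 stood at 20.5 and 35.6 CPM in SCA1high, against 3.55 and 3.29 CPM in SCA1low (3.03 ± 0.60, adjusted p = 0.00668). Its partner Krt5 stood at 22.4 and 41.9 CPM in SCA1high, against 3.76 and 4.16 CPM in SCA1low (3.02 ± 0.66, adjusted p = 0.0209). Both were highest in SCA1int, with Krt14 at 178 and 193 CPM and Krt5 at 95.7 and 199 CPM. The calls were lost without SCA1high library 2 (2.52 for Krt14 and 2.44 for Krt5) and without SCA1low library 1 (2.96 and 2.82). They were lost too with SCA1high library 2 and SCA1low library 2 both left out (2.53 and 2.57). The 4 libraries fitted alone, the 6 LY6D- libraries alone and limma did not call them, and RLE factors did not call Krt5. Trp63, another gene of the basal list, had 0.0782 and 12.2 CPM in SCA1high, against 0.430 and 0.433 CPM in SCA1low, and was not called. Krt15 stood at 266 and 230 CPM in SCA1high, against 26.4 and 125 CPM in SCA1low, and was not called (1.72 ± 0.43, adjusted p = 0.0645). Sparc, a matrix protein gene of the basal list that stromal cells and endothelium also express, stood at 860 and 829 CPM in SCA1high, against 61.7 and 209 CPM in SCA1low (2.64 ± 0.53). Without SCA1low library 1 its call was lost (1.86), and without SCA1low library 2 it was at 3.75. Subtraction gave 5.25 for Krt14, 6.04 for Krt5 and 3.59 for Sparc. Of 23 tested basal genes 3 rose and 0 fell, with a median of 2.31. The part of basal cells in the gate was not tested.

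Of the endothelial genes 1 was called, although many had separated groups and CD31-positive cells had been removed. Aqp1, the water channel gene of endothelium and many epithelia, stood at 2616 and 3692 CPM in SCA1high, against 189 and 372 CPM in SCA1low (3.49 ± 0.77, adjusted p = 0.0209). Of 31 tested endothelial genes Aqp1 was the 1 called, 0 fell and the median was 3.24. In 27 of the 31 both SCA1high libraries lay above both SCA1low libraries, against 22.7% of all tested genes. Flt1, a VEGF receptor gene, stood at 749 and 925 CPM in SCA1high and at 35.7 and 106 CPM in SCA1low, without a call (adjusted p = 0.0761). Kdr, the other main VEGF receptor gene, stood at 463 and 392 CPM in SCA1high and at 51.5 and 86.4 CPM in SCA1low, also without a call. The summed level of the 31 genes was 8863 and 11296 CPM in SCA1high, against 754 and 1571 CPM in SCA1low, with SCA1int at 2879 and 3283 CPM. None of the 31 was at 0 in all 4 libraries. Subtraction of shared counts called 4 of the 31 higher, and the fit without SCA1low library 2 called 5. Aqp1 was not called after subtraction or with RLE factors. Fibroblast and smooth muscle genes summed to 2135 and 2238 CPM in SCA1high, against 485 and 559 CPM in SCA1low. Much of the SCA1high sum came from Gsn and Igfbp7 (569 and 552 CPM). Col1a1 stood at 49.6 and 49.6 CPM in SCA1high and at 3.66 and 7.79 CPM in SCA1low. Myh11 stood at 0.0782 and 1.52 CPM in SCA1high and at 49.6 and 0.26 CPM in SCA1low. Pdgfra and Lum were at 0.254 CPM or less in all 4 libraries. Both SCA1high libraries lay above both SCA1low libraries in 10 tested members and below in 1, and 11 overlapped. Of 22 tested, 1 rose, 0 fell and the median was 2.79. The 1 was Gsn, which encodes the actin-severing protein gelsolin, at 741 and 793 CPM in SCA1high, against 134 and 179 CPM in SCA1low (2.29 ± 0.48). It lost its call without SCA1low library 1 (1.95) and with RLE factors.

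Fabp4 belongs beside these values. This fatty acid-binding protein gene, known from adipocytes, capillary endothelium and macrophages, stood at 744 and 1256 CPM in SCA1high, against 33.4 and 111 CPM in SCA1low (3.79 ± 0.90, adjusted p = 0.0388). It was the largest log2 fold change among the 37 genes called higher. Its call was lost without SCA1high library 2 (3.32) and with RLE factors. It was at 4.90 without SCA1low library 2 and at 3.03 without SCA1low library 1. Subtraction left 787 and 1392 CPM in SCA1high, against 0 and 7.05 CPM in SCA1low (8.12). SCA1int held 138 and 230 CPM. Of 8 listed adipocyte genes 2 were tested, Plin4 and Pparg, and 0 were called. The list summed to 13.6 and 44.5 CPM in SCA1high, against 22.3 and 53.9 CPM in SCA1low. Nearly all of it was Plin4, apart from Pparg at 25.4 CPM in SCA1high library 2. Adipoq, Cidec, Lep and Cfd of this list were at 0 in all 4 libraries. Tm4sf1, Podxl, Slco2a1 and Cxcl12, which endothelium is known to express among other cells, were also called higher. The part of endothelial or stromal RNA in the higher genes was not tested.

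Of the interferon and MHC class I genes 3 were called. Of 37 tested 3 rose and 0 fell, where 0.242% of all tested genes were called higher. The median was 2.75, against 0.53 over all tested genes. In 30 both SCA1high libraries lay above both SCA1low libraries, as they did for 22.7% of all tested genes. Irf1, an interferon-induced transcription factor gene, stood at 1154 and 1245 CPM in SCA1high, against 68.5 and 289 CPM in SCA1low (2.75 ± 0.56). Ifitm3, which encodes a membrane protein that blocks virus entry, stood at 423 and 515 CPM in SCA1high, against 33.2 and 72.9 CPM in SCA1low (3.14 ± 0.64). Iigp1, an immunity-related GTPase gene, stood at 972 and 723 CPM in SCA1high, against 41.6 and 140 CPM in SCA1low (3.22 ± 0.68). Without SCA1low library 1 the calls of Irf1 (1.9), Ifitm3 (2.54) and Iigp1 (2.43) were lost. Without SCA1low library 2 they stood at 4.11, 3.8 and 4.32, and after subtraction at 3.73, 4.92 and 7.83. Without SCA1high library 2 the call of Ifitm3 (2.95) was lost, and without SCA1high library 1 that of Iigp1 (2.91). Of 7 tested leukocyte genes edgeR and DESeq2 called 0, with 0 at an unadjusted p below 0.05. The summed level of the 23 leukocyte genes was 28.0 and 49.0 CPM in SCA1high, against 10.3 and 29.8 CPM in SCA1low, and 11 of them were at 0 in all 4 libraries.

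**Figure D4:**
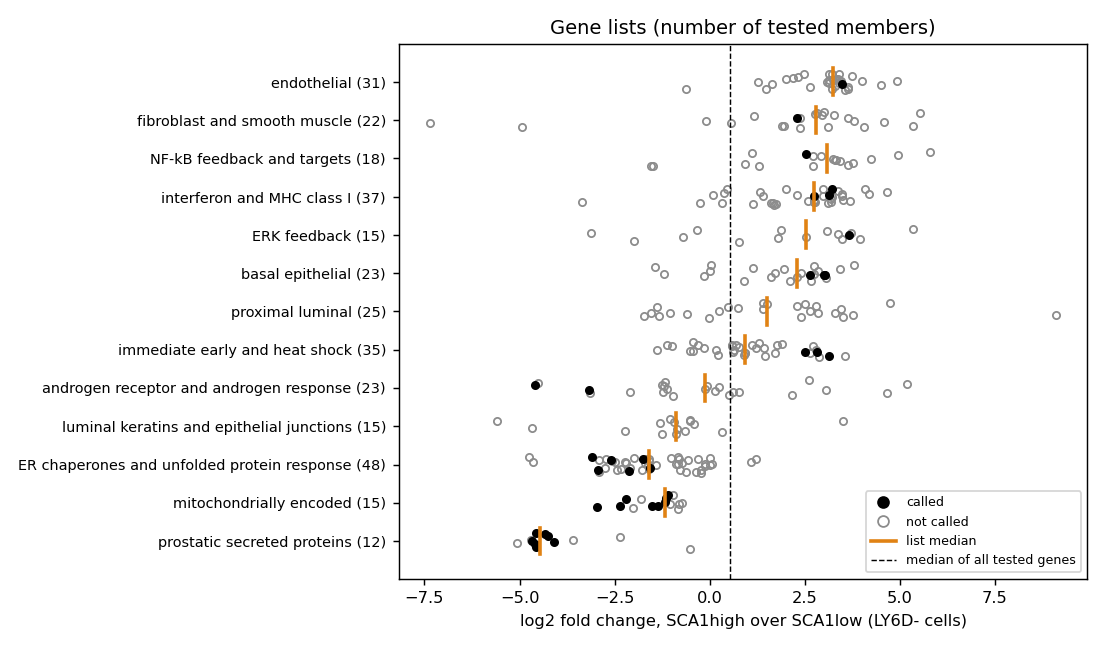
Log2 fold change of SCA1high over SCA1low in LY6D- cells (x axis) for the tested members of 13 gene lists. Black points are called genes, open points are not called, orange bars are list medians and the dashed line is the median of all tested genes at 0.53. The median of the prostatic secreted list is -4.45 and that of the endothelial list 3.24.

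SCA1int cells were set beside both ends. The mean of the SCA1int libraries lay between those of SCA1high and SCA1low for 57 of the 60 genes called lower and for 29 of the 37 called higher. Over all tested genes the share was 33.8%, and it was 58.5% and 50.0% of the genes with both SCA1high libraries below or above both SCA1low libraries. Since called genes have ends that lie far apart, these shares are a description only. It lay above both for the other 8 higher genes, namely Dusp6, Hbegf, Krt14, Apoe, Krt5, S100a10, Kmt2e and Ano1. Among the lower genes it lay above both for Mt2, Gm45774 and Acsl3.

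The same SCA1 contrast within LY6D+ cells, which shares no library with it, called 50 genes (0.327%), 6 higher (0.0393%) and 44 lower (0.288%). Its median log2 fold change over all tested genes was -0.17. Of the 60 genes lower in LY6D- SCA1high cells 56 had a negative log2 fold change in LY6D+ cells, and 34 were called lower there. Of the 37 higher genes 30 had a positive log2 fold change in LY6D+ cells, and 4 were called higher there: S100a6, Emp1, Gsn and Ly6a. Of these, Ly6a encodes SCA1, the protein sorted on in both LY6D states. Both contrasts share the estimate of spread of each gene. LY6D+ libraries shared counts too. Genes specific to LY6D+ SCA1high library 2 stood at a median of 6.77% in LY6D+ SCA1int library 2. Those of LY6D+ SCA1int library 1 stood at 4.06% in LY6D+ SCA1low library 1. Between LY6D+ SCA1high and LY6D+ SCA1low libraries the highest median was 1.32%. A call in 1 LY6D state and not in the other is no test of a difference, which was made by the interaction term. It called 6 genes (0.0393%), with 1160 at an unadjusted p below 0.05. The median interaction log2 fold change over all tested genes was 0.45 with TMM and 0.10 with RLE factors. Nfkbia, Ier3, Dusp6 and Tgm2 differed between SCA1high and SCA1low more upward in LY6D- than in LY6D+ cells. Mt2 and Defb50 differed more downward. Dusp6 stood at 917 and 1029 CPM in LY6D+ SCA1high and at 628 and 1208 CPM in LY6D+ SCA1low, where the groups overlapped. Mt2 stood at 4913 and 3165 CPM in LY6D+ SCA1high and at 3754 and 3548 CPM in LY6D+ SCA1low, where they overlapped too. Defb50 stood at 888 and 683 CPM in LY6D+ SCA1high, against 3499 and 3722 CPM in LY6D+ SCA1low, a fall that was called (-2.20 ± 0.25) and was smaller than in LY6D- cells. RLE factors kept 2 of the 6 interaction calls, DESeq2 kept 3, and the 8 libraries at SCA1high and SCA1low fitted alone kept 0.

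**Figure D5:**
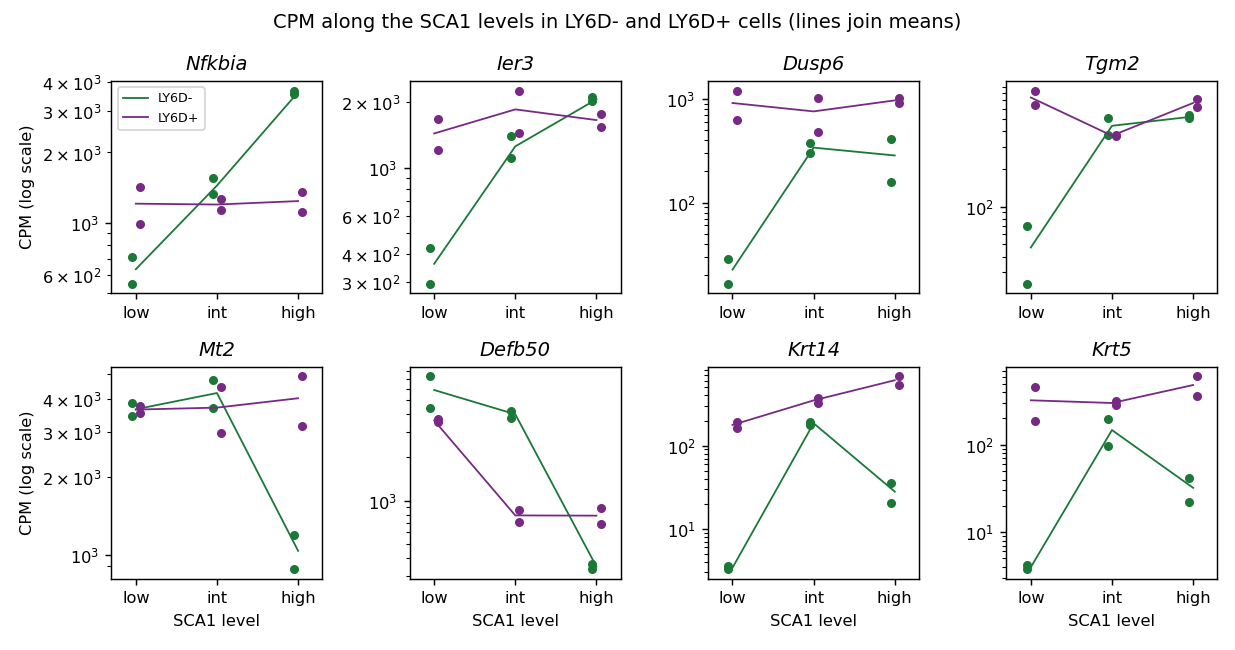
CPM on a log scale (y axis) at SCA1 low, int and high (x axis) for 8 genes in LY6D- cells (green) and LY6D+ cells (purple), with 1 point per library and lines through the means. The means of Nfkbia, Ier3 and Tgm2 climb with SCA1 from low to high in LY6D- cells, and those of Dusp6, Krt14 and Krt5 are highest at SCA1int there.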

How the data were processed

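RNA of each population was sequenced from the 3' end of transcripts with QuantSeq. The authors deposited raw counts per Ensembl gene and a normalised table whose signal equals depth-scaled counts (CPM) times 1 factor per library. STAR 2.5.1, cutadapt 1.9.1, featureCounts, Subread, Picard 1.96, edgeR, SAMtools 1.3.1 and build mm10 are listed, per the submitters' processing notes. The strand setting is not given in the sources used here. No molecular identifiers are named, so duplicate reads cannot be told from separate molecules.

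Here 15270 of 48795 genes were tested in R 4.3.3 with the quasi-likelihood test of edgeR 4.0.16 on the deposited counts (TMM factors, filterByExpr, 6 population means over 12 libraries), with Benjamini-Hochberg adjustment. SEs were taken from the fold change and its F statistic. The biological coefficient of variation was 1.28. The labels name biological replicates but not whether each was its own animal or a pool. The p-values therefore reflect only how far these libraries differed, which may be technical. Replicate 1 libraries bear the prefix HN6 and replicate 2 libraries HN7, which the labels do not explain. Deviations of same-numbered libraries correlated at -0.197 to 0.132, so the numbers were not taken as pairing. Alternatives used DESeq2 1.42.0, and limma 3.58.1 on log2 of the deposited normalised signal plus 1. The test was tried on simulated data first. The subtraction of shared counts, the removal of both doubted libraries and the blocks in 4 libraries were chosen after seeing the data. Genes were named by smallest p in each direction, as markers and as list members. Members and lists were chosen with earlier results of these data known. Promoter windows came from RefSeq, build GRCm38.p6, the assembly of mm10.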

Additional observations from a re-analysis of the deposited data

Results flagged for a closer look

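The log2 fold change of SCA1high over SCA1low differed between LY6D- and LY6D+ cells for 6 genes in the interaction term of edgeR's quasi-likelihood test. In each sentence the value is the change in LY6D- cells minus that in LY6D+ cells. For Nfkbia it was 2.48 ± 0.39 (SE, adjusted p = 0.0131), with 1117 and 1359 CPM in LY6D+ SCA1high and 992 and 1422 CPM in LY6D+ SCA1low. For Ier3 it was 2.31 ± 0.43 (adjusted p = 0.0284), with 1769 and 1543 CPM in LY6D+ SCA1high and 1204 and 1670 CPM in LY6D+ SCA1low. For Dusp6 it was 3.58 ± 0.69 (adjusted p = 0.0390), and without LY6D- SCA1high library 2 it was 2.84 ± 0.68 (adjusted p = 0.0539). It was 4.2 without LY6D- SCA1low library 2. For Tgm2 it was 3.61 ± 0.66 (adjusted p = 0.0284), with 716 and 617 CPM in LY6D+ SCA1high and 639 and 835 CPM in LY6D+ SCA1low. It was 2.91 without LY6D- SCA1low library 1 and 4.73 without LY6D- SCA1low library 2. For Mt2 it was -1.97 ± 0.34 (adjusted p = 0.0235) and for Defb50 -1.88 ± 0.35 (adjusted p = 0.0284). Subtraction of shared counts gave 3.16 for Nfkbia, 3.01 for Ier3, 5.94 for Dusp6 and -3.04 for Defb50. With RLE factors the interaction calls of Nfkbia (2.13), Ier3 (1.97), Dusp6 (3.27) and Tgm2 (3.30) were lost. The median interaction value over all tested genes was 0.10 with RLE factors and 0.45 with TMM. DESeq2 did not call the interaction of Nfkbia (adjusted p = 0.0607), Ier3 (0.0881) or Defb50 (0.0506). In the LY6D+ libraries SCA1high and SCA1low overlapped for Nfkbia, Ier3, Dusp6, Tgm2 and Mt2 and not for Defb50.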

How the results depend on the processing

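Against 97 genes called in LY6D- cells, 37 higher and 60 lower, RLE factors gave 137 (20 and 117), library size alone 136 (96 and 40), no filter on low counts 161 (49 and 112), the 6 LY6D- libraries alone 221 (98 and 123), the 4 libraries alone 262 (117 and 145), DESeq2 597 (220 and 377) and limma 62 (17 and 45). A test against a 1.5-fold change gave 66 (26 and 40). Subtracting shared counts gave 131 (63 and 68), and leaving out SCA1high library 2 and SCA1low library 2 together gave 148 (49 and 99). Leaving out 1 library at a time gave 87 to 206 calls, 16 to 99 higher and 58 to 108 lower. The replicate block gave 128 (55 and 73). Same-numbered SCA1high and SCA1low libraries deviated with a correlation of -0.197 across genes. In the 4 libraries alone the crossed block called 275 (95 and 180) and the same-number block 186 (74 and 112), without Hbegf, Krt14 and Krt5.

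Against 6 genes whose change differed between LY6D states, 4 higher and 2 lower, RLE factors gave 2 (0 and 2), no filter 17 (11 and 6), the replicate block 8 (5 and 3), DESeq2 494 (305 and 189), subtraction 14 (11 and 3) and both libraries left out 22 (9 and 13). Of the 6 genes, DESeq2 kept 3 among its calls. The 8 libraries at SCA1high and SCA1low alone, limma and the 1.5-fold test called 0, with 952, 768 and 1103 at an unadjusted p below 0.05. Leaving out 1 library gave 9 to 32 calls, 3 to 27 higher and 2 to 8 lower. The cause of these moves was not tested. Of the genes named, 2 changed sign, neither of them called: Ly6d to -0.039 with both libraries left out, and Epcam to 0.23 with library size alone and 0.70 without SCA1low library 1, within a range of -1.11 to 0.70 when 1 library was left out. A lone library left in a group was assumed to vary like the other groups. Low counts limit genes such as Ly6d most.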

Other observations

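Other gene groups gave 0 to 2 edgeR calls each between LY6D- SCA1high and LY6D- SCA1low cells. Over all tested genes 0.635% were called, and the median log2 fold change was 0.53. Of 25 tested proximal luminal genes edgeR called 0 and DESeq2 2 higher, with 12 at an unadjusted p below 0.05 and a median log2 fold change of 1.5. Of 19 tested cell cycle genes edgeR called 0 and DESeq2 1 higher, with 0 at an unadjusted p below 0.05 and a median of 2.41. Of 13 tested Notch pathway genes edgeR and DESeq2 called 0, with 1 at an unadjusted p below 0.05. Of 10 tested genes of polyamine synthesis edgeR and DESeq2 called 0, and edgeR with library size alone 1 higher, with 1 at an unadjusted p below 0.05 and a median of -0.01. Of 16 tested genes of fatty acid handling Fabp4 rose and Acsl3 fell. Of 14 tested Ly6 family genes Ly6a, which encodes the sorted protein SCA1, rose and 0 fell.

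Genes listed for the seminal vesicle, red cells and urothelium varied by library, and the source of their RNA was not tested. Seminal vesicle genes summed to 280 and 605 CPM in SCA1high and to 6237 and 538 CPM in SCA1low. Among these libraries SCA1low library 1 stood apart, while SCA1int held 4642 and 1625 CPM. The median log2 fold change of SCA1high over SCA1low for this list was -2.90 in LY6D- cells and -4.93 in LY6D+ cells. Svs4, a seminal vesicle secretion gene, was called lower in SCA1high, at 19.1 and 67.3 CPM, against 1194 and 176 CPM in SCA1low. Library size alone, the test against a 1.5-fold change and limma did not call Svs4. Its log2 fold change was -3.99, -2.13 without SCA1low library 1, -4.78 without SCA1low library 2, -3.39 without SCA1high library 1 and -5.24 without SCA1high library 2. Erythroid genes summed to 28.4 and 91.9 CPM in SCA1high and to 828 and 7.36 CPM in SCA1low, with 0 of 4 tested genes called by edgeR or DESeq2 and 0 at an unadjusted p below 0.05. Urothelial genes summed to 36.6 and 37.0 CPM in SCA1high and to 162 and 43.5 CPM in SCA1low, with 0 of 3 called by edgeR or DESeq2 and 0 at an unadjusted p below 0.05.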
